A study of Arabidopsis thaliana with 28 samples.

Results

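The stem cells that give rise to the epidermis and the lateral root cap (Epi/LRC) of the Arabidopsis thaliana root were compared with non-stem cells (NSCs) of the root meristem. Epi/LRC cells were GFP-positive cells of the line FEZ:FEZ:GFP (n = 3), and NSCs were GFP-negative cells of a different line, AGL42:GFP (n = 4). Of the 33201 genes with values, 18501 had an FPKM (fragments scaled by gene length and by library size) of at least 1 in at least 3 of these 7 samples, and these were tested. The series holds 28 samples of sorted root tip cells from 5-day-old seedlings. Besides Epi/LRC, 6 GFP-positive populations were sorted. Columella stem cells (CSCs) came from J2341:GFP (n = 3), quiescent center cells (QC) from WOX5:GFP (n = 3), and cortex endodermis initials, here CEI, from CYCD6:GFP (n = 3). Xylem stem cells (Xyl) came from TMO5:3xGFP (n = 4) and protophloem cells (Protophlo) from CVP2:NLS:VENUS (n = 4). AGL42:GFP also gave the stem cell niche as a whole (SCN, n = 4). The labels give Col-0 as the ecotype of every line and no treatment. FEZ:FEZ:GFP is a protein fusion, so that cells were sorted by the FEZ protein they held, and reads of the fusion count toward FEZ. NSCs were all cells of the cut tip outside the AGL42 domain, so this is a mixed group. In such sorted pools, fewer cells of a type and less RNA per cell cannot be told apart. The line and the GFP gate also differed between Epi/LRC and NSCs, and cannot be told apart from the cell type.

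In the root tip, a ring of stem cells gives rise both to the epidermis and to the lateral root cap, the layer that sheathes the meristem and is later shed. FEZ, a NAC transcription factor, promotes the division that sets off a new root cap layer, and its relative SMB represses that division in the daughter cells. SMB, with BRN1 and BRN2, then drives maturation, programmed cell death and shedding of the cap. In the epidermis, WER with the bHLH proteins GL3 and EGL3 and the WD40 protein TTG1 sets the hairless cell fate through GL2, while RHD6 and RSL1 start root hair development.

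The libraries differed before any comparison. The FPKM values gave no read counts, so depth is unknown. Between 14550 and 17549 genes reached an FPKM of 1 in Epi/LRC, and between 17149 and 18083 in NSCs. Of the tested genes, 10.5%, 17.3% and 7.77% were listed at 0 in Epi/LRC replicates 1, 2 and 3, against 0.308% to 2.22% in NSCs. The filter let a gene pass more easily on NSC samples alone than on Epi/LRC samples alone, which bears on these percentages. Across genes, which are not independent replicates, Pearson's r of log2(FPKM + 1) was 0.727 to 0.841 among Epi/LRC replicates and 0.923 to 0.976 among NSC replicates. Between Epi/LRC and NSC samples it was 0.424 to 0.682. Between Epi/LRC and every other stem cell population the range overlapped with that among Epi/LRC replicates, for example 0.662 to 0.847 with the QC. Mean r was 0.790 among Epi/LRC replicates and 0.776 with the QC, the highest mean with another population. Epi/LRC replicate 2 stood apart, with 1370 genes over 4-fold below both other replicates, compared to 297 and 304 for replicates 1 and 3. The rRNA genes AT2G01010, AT2G01020 and AT3G41979, of which the last 2 had the same values in each library, were at 431 to 1368 FPKM in NSCs and at 1.59 to 3.24 FPKM in Epi/LRC. Outside the NSCs and the CEI no sample had more than 4.41 FPKM. The rRNA gene AT3G41768 did not separate the groups, at 822 to 1782 FPKM in Epi/LRC and 736 to 1088 FPKM in NSCs. The part of these library differences in the results was not tested.

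With limma on log2(FPKM + 1), 2926 genes were higher in Epi/LRC than in NSCs and 3894 were lower (Benjamini-Hochberg adjusted p under 0.06 and fold-change above 2). These are 15.8% and 21.0% of all genes tested, the background for every list described here. Without Epi/LRC replicate 2 the numbers were 1904 and 2738. Of the genes called, 1466 higher and 2267 lower genes were called in each of the 7 fits that left out a replicate of either group. All 28 samples were fitted together, so each SE and p-value also rests on the spread within the other populations. In Epi/LRC 600 of the tested genes were listed at 0 in every replicate, and in NSCs 2 genes were. The filter was uneven here, so these counts cannot be compared directly. A gene absent from NSCs had to reach 1 FPKM in every Epi/LRC replicate, while a gene absent from Epi/LRC could miss it in 1 NSC replicate. Of the tested genes, 1262 reached 1 FPKM in NSC samples only and 153 in Epi/LRC samples only. With no filter on low values, 2676 genes were higher and 3563 lower. After division by size factors the all-gene median shifted by -0.20 on the log2 scale, and 2384 genes were then higher and 4604 lower. Gene lists are described by the numbers called, and no list was tested as a set. Where limma called no gene of a list in a direction, at most 1 gene passed an unadjusted p under 0.05 there, except for 2 lower niche genes. The medians given for lists kept their sign with size factors.

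**Figure D1:**
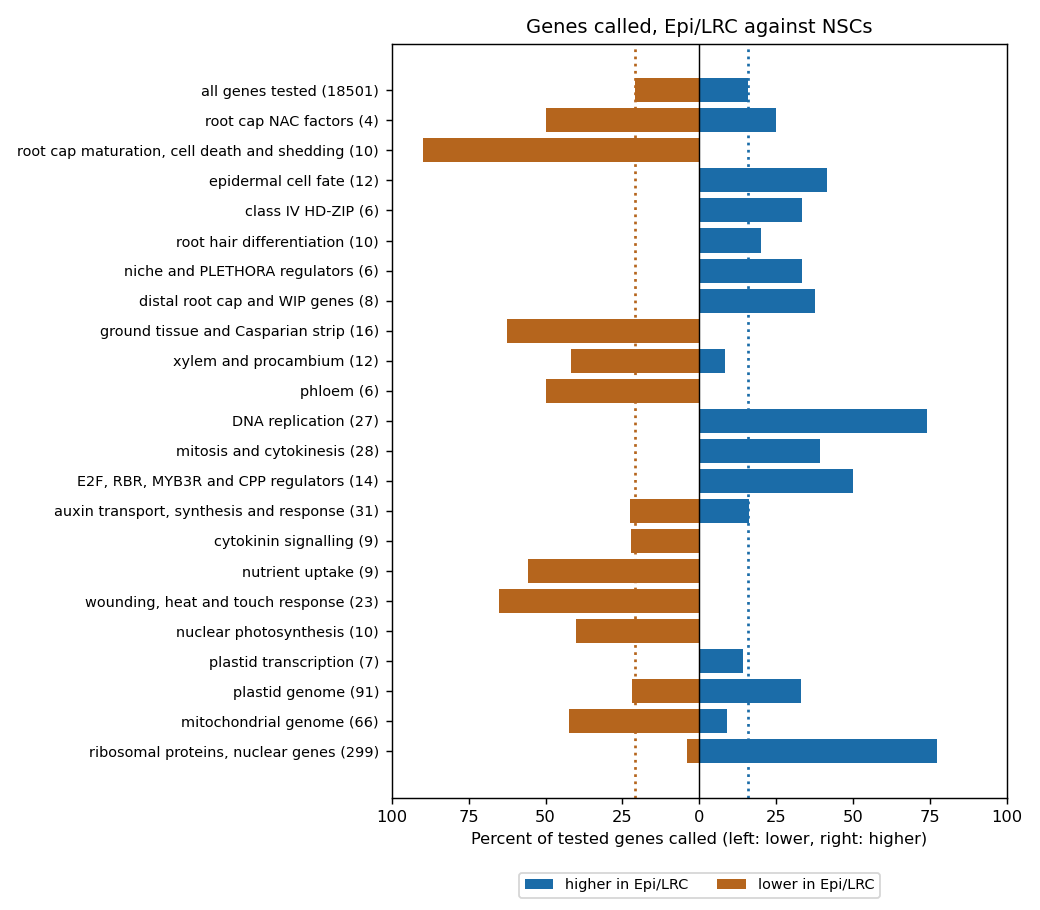
Percent of the tested genes of each list called higher (right) or lower (left) in Epi/LRC than in NSCs. The number of tested genes is in brackets and dotted lines mark all genes, at 15.8% higher and 21.0% lower. DNA replication and ribosomal protein genes reach furthest to the right, and root cap maturation, wounding and Casparian strip genes furthest to the left.

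The gene used for the sort was read first. Cells were sorted by the FEZ fusion and its reads count toward FEZ, so high FEZ is no independent check of the labelled identity. FEZ (AT1G26870, chromosome 1, 9312936 to 9315122, RefSeq TAIR10.1) was at 107, 72.3 and 262 FPKM in Epi/LRC replicates 1 to 3. In the NSCs it was at 2.59, 0.945, 0.695 and 1.05 FPKM. Every Epi/LRC replicate lay above every NSC sample (log2 fold change 5.85, SE 0.53, adjusted p = 1.49e-08). Among all populations the order of mean FPKM was Epi/LRC, CSCs, QC, SCN, NSCs, CEI, Xyl and Protophlo. In CSCs, the daughters of which form the columella part of the cap, FEZ was at 55.9 to 109 FPKM and overlapped with Epi/LRC. It was at 10.3 to 43.9 FPKM in the QC and 9.91 to 36.9 FPKM in the SCN, again with overlap between these neighbours. The NSCs, CEI and Xyl also overlapped, with no FEZ value above 2.59 FPKM.

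None of the other 3 NAC factors of the cap was called higher. SMB (AT1G79580) was at 74.6, 49.2 and 133 FPKM in Epi/LRC and 19.8, 16.3, 27.9 and 17.2 FPKM in NSCs. These groups did not overlap, but the difference missed the threshold (log2 fold change 1.93, SE 0.95, adjusted p = 0.112). SMB passed it when Epi/LRC and NSCs were fitted alone and with array weights. BRN1 (AT1G33280) was at 47.0, 0 and 29.1 FPKM in Epi/LRC and at 253, 181, 289 and 197 FPKM in NSCs, and was called lower (log2 fold change -4.33, SE 1.27, adjusted p = 0.0108). BRN2 (AT4G10350) was at 51.0, 0.110 and 24.99 FPKM in Epi/LRC and 104 to 265 FPKM in NSCs (log2 fold change -3.84, SE 1.24, adjusted p = 0.0181). Replicate 2 held almost no transcript of either gene, and without it neither was called.

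Genes of cap maturation and death were low together. Of the 11 listed genes 10 were tested, 9 were called lower and none higher, with a median log2 fold change of -4.96 compared to -0.08 over all genes. The summed FPKM of the list was 623, 18.4 and 279 in Epi/LRC replicates 1, 2 and 3 and 2201 to 4437 in NSCs. BFN1, a nuclease of dying cells, was at 13.9, 0 and 27.4 FPKM in Epi/LRC and 126, 150.2, 291 and 415 FPKM in NSCs (log2 fold change -4.87, SE 1.25, adjusted p = 0.00415). The ribonuclease RNS3 was at 47.5, 0.224 and 68.9 FPKM in Epi/LRC and 327 to 809 FPKM in NSCs (log2 fold change -4.95, SE 1.65, adjusted p = 0.0220). AT4G04460, annotated as an aspartyl protease, was at 30.9, 0.116 and 7.61 FPKM in Epi/LRC and 179.7 to 287 FPKM in NSCs (log2 fold change -5.07, SE 0.98, adjusted p = 0.000474). RNS3 was not called without replicate 2. For these genes replicate 2 was lowest, and all Epi/LRC values lay below all NSC values.

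The cellulase gene CEL5, which acts in the shedding of cap cells, showed how far the replicates parted. It was at 127, 0.267 and 2.38 FPKM in Epi/LRC and 139.8 to 371 FPKM in NSCs (log2 fold change -4.98, SE 1.37, adjusted p = 0.00689). CEL3 was at 147, 0.0628 and 0.714 FPKM, with replicate 1 above all NSC samples at 102 to 138 FPKM, and its call (adjusted p = 0.0415) was lost in 9 of 18 alternatives. AT1G65570, annotated as pectin lyase-like, was at 51.8, 0.380 and 0.900 FPKM compared to 266 to 635 FPKM (log2 fold change -6.25, SE 1.86, adjusted p = 0.0114). Of the other members, AT2G14095, AT4G18425 and SCPL48, a serine carboxypeptidase-like gene, had log2 fold changes of -5.45, -5.17 and -3.65. MC9, a metacaspase that processes proteins in dying cells, was at 163, 9.97 and 162 FPKM in Epi/LRC and 670.4 to 1539.7 FPKM in NSCs and missed the threshold (adjusted p = 0.106). CEL5 and AT1G65570 were not called without replicate 2. Leaving out Epi/LRC replicate 2 left 5 genes of the list called lower.

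**Figure D2:**
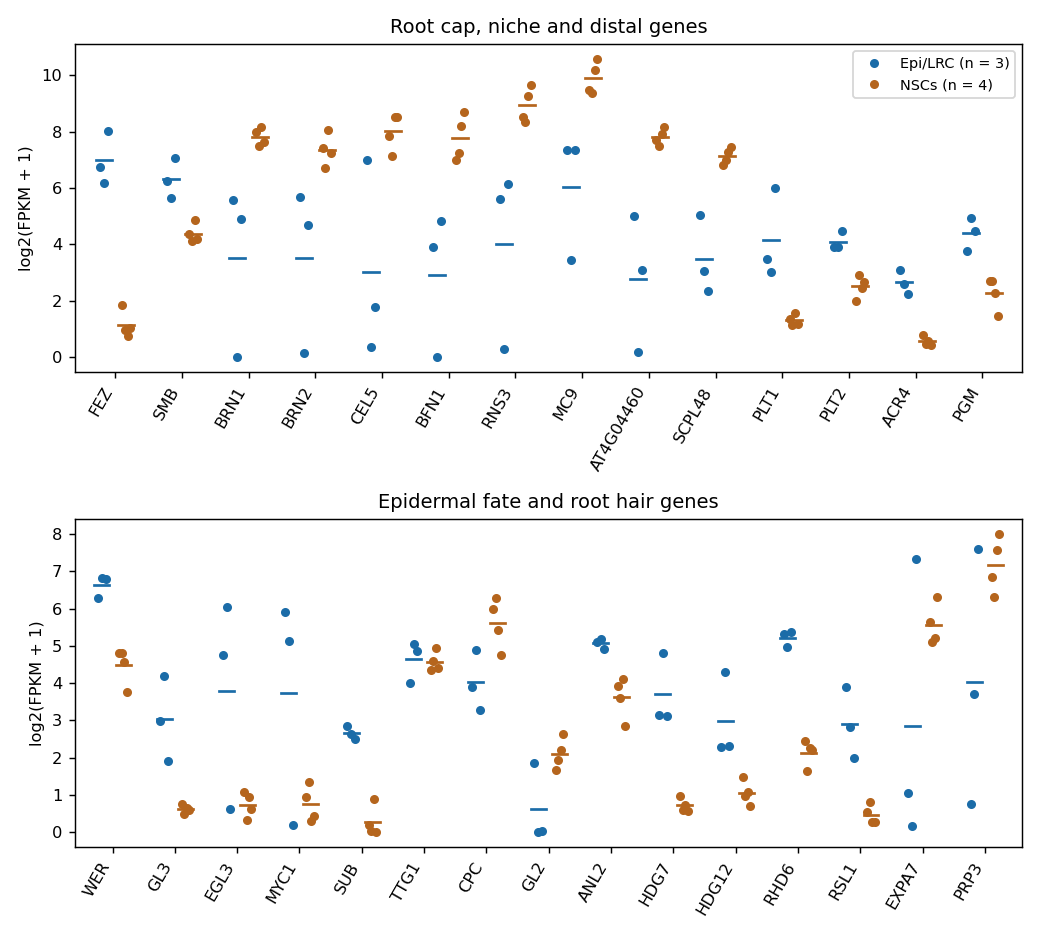
log2(FPKM + 1) of root cap, niche and distal genes (top) and of epidermal fate and root hair genes (bottom), with a point for each sample and a line at the mean of the 3 Epi/LRC replicates and the 4 NSC replicates. FEZ, ACR4, SUB and RHD6 separate the groups with little spread, while BRN1, CEL5, EGL3, MYC1 and EXPA7 have Epi/LRC replicates at both ends of the scale.

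In the epidermal fate list 5 of 12 genes were higher in Epi/LRC and none lower. WER, the MYB factor of hairless cells, was at 77.1, 112 and 111 FPKM in Epi/LRC and 26.8, 27.2, 22.6 and 12.6 FPKM in NSCs (log2 fold change 2.15, SE 0.81, adjusted p = 0.0390). All 3 replicates were above all NSC samples, but the call was lost in 9 of 18 alternatives, among them size factors and the fits without any 1 of the Epi/LRC replicates. Compared with the mean of the other 5 stem cell types (CEI, Protophlo, CSCs, Xyl and QC), WER was also higher (log2 fold change 2.76, SE 0.66, adjusted p = 0.0153). It was the only 1 of the 12 genes higher in that comparison, where 2.44% of all genes were. The bHLH genes GL3 and EGL3 were at 6.96, 17.2 and 2.79 FPKM and at 25.8, 64.6 and 0.530 FPKM in Epi/LRC. In NSCs GL3 was at 0.403 to 0.679 FPKM and EGL3 at 0.253 to 1.12 FPKM. Their log2 fold changes were 2.41 (adjusted p = 0.0322) for GL3 and 3.06 (adjusted p = 0.0183) for EGL3. Neither was called without Epi/LRC replicate 1 or 2, nor GL3 without NSC replicate 4.

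MYC1, another bHLH gene of this pathway, was at 58.8, 34.0 and 0.138 FPKM in Epi/LRC and at 0.231 to 1.53 FPKM in NSCs (log2 fold change 2.99, SE 1.08, adjusted p = 0.0331). The MYC1 call was lost in 7 of 18 alternatives. Replicate 3 was low for EGL3 and MYC1 and overlapped with NSCs. The receptor-like kinase gene SUB, also known as SCRAMBLED, which passes positional cues to the epidermis, was even across replicates at 6.25, 5.17 and 4.66 FPKM. In NSCs SUB was at 0 to 0.845 FPKM (log2 fold change 2.39, SE 0.60, adjusted p = 0.00354). Compared with CSCs, SUB was lower in Epi/LRC (log2 fold change -2.20, adjusted p = 0.0284).

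The genes that act next to or after this complex differed less. TTG1 was at 14.9, 32.3 and 28.3 FPKM in Epi/LRC and 19.4 to 30.0 FPKM in NSCs (log2 fold change 0.06, adjusted p = 0.912). GL2 was at 2.61, 0 and 0.0218 FPKM in Epi/LRC and 2.18 to 5.15 FPKM in NSCs (log2 fold change -1.48, adjusted p = 0.172). CPC, the mobile repressor of hairless fate, was at 13.96, 28.5 and 8.75 FPKM in Epi/LRC and 26.0 to 77.7 FPKM in NSCs (log2 fold change -1.60, adjusted p = 0.0688), TRY at 0.354 to 2.69 and 0.596 to 1.57, and ETC1 at 0 to 12.1 and 2.23 to 3.66. MYB23 was at 0.0780 to 9.32 and 6.04 to 13.1 FPKM and TTG2 at 1.43 to 10.3 and 1.30 to 3.41 FPKM. None of these 7 genes passed the threshold, but CPC passed it in 5 of 18 alternatives, and GL2 and ETC1 in 1 each. Of the 12 genes only 1 was called higher with a pseudocount of 0.1, only 1 without Epi/LRC replicate 1 and only 1 without replicate 2. Without NSC replicate 3, 3 were called higher, and without NSC replicate 4, 2 were.

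Class IV HD-ZIP genes encode homeodomain factors of outer cell layers. Of 15 genes 6 were tested, and 2 were higher. HDG7 was at 7.89, 27.3 and 7.66 FPKM in Epi/LRC and 0.969, 0.522, 0.648 and 0.484 FPKM in NSCs (log2 fold change 2.98, SE 0.50, adjusted p = 0.000131). HDG12 was at 3.91, 18.8 and 4.00 FPKM in Epi/LRC and 0.624 to 1.79 FPKM in NSCs (log2 fold change 1.92, SE 0.64, adjusted p = 0.0222), and was not called without replicate 2. Both were highest in replicate 2. ANL2 was at 33.1, 35.6 and 29.3 FPKM compared to 6.20 to 16.3 FPKM, without overlap, and missed the threshold (log2 fold change 1.45, adjusted p = 0.0648). HDG1, HDG2 and HDG11 had log2 fold changes of 0.05, -0.31 and 0.67, and did not pass.

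Of 10 root hair genes 2 were higher and none lower, near the background for higher genes. None was higher than the mean of the other 5 stem cell types, where 2.44% of all genes were. RHD6, the bHLH factor that starts hair development, was at 38.7, 30.3 and 40.3 FPKM in Epi/LRC and 4.41, 2.102, 3.75 and 3.64 FPKM in NSCs (log2 fold change 3.08, SE 1.09, adjusted p = 0.0290). Its partner RSL1 was at 13.9, 6.01 and 2.97 FPKM in Epi/LRC and 0.207 to 0.741 FPKM in NSCs (log2 fold change 2.43, SE 0.76, adjusted p = 0.0151). RHD6 was not called when any 1 of the Epi/LRC replicates or NSC replicate 2 was left out, nor RSL1 without Epi/LRC replicate 1. The 8 genes that act later did not pass the test in either direction. EXPA7, an expansin of growing hairs, was at 1.07, 0.113 and 161 FPKM in Epi/LRC and 33.6 to 78.6 FPKM in NSCs (log2 fold change -2.72, adjusted p = 0.204). PRP3, a cell wall protein, was at 0.697, 12.03 and 192 FPKM compared to 78.4 to 256 FPKM (log2 fold change -3.16, adjusted p = 0.183). Replicate 3 held these transcripts at the level of NSCs or above, and replicates 1 and 2 far below.

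RSL2, RSL4, COBL9, EXPA18, RHD2 and LRX1 were also highest in replicate 3, at 17.5, 70.6, 130.01, 77.8, 57.0 and 100.94 FPKM. The summed FPKM of the list was 159, 54.6 and 849.9 in replicates 1, 2 and 3 and 234 to 631 in NSCs. Without replicate 3, 5 root hair genes were called lower and 1 higher. Without replicate 1, none was called.

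Among regulators of the stem cell niche, PLT1, an AP2 factor that follows the auxin maximum, was at 10.06, 7.004 and 63.0 FPKM in Epi/LRC and 1.56, 1.19, 1.93 and 1.25 FPKM in NSCs (log2 fold change 2.85, SE 0.64, adjusted p = 0.00165). PLT2 was at 14.1, 14.1 and 21.2 FPKM in Epi/LRC and 2.93 to 6.62 FPKM in NSCs (log2 fold change 1.60, SE 0.63, adjusted p = 0.0487), a call lost in 9 of 18 alternatives. Both were lower in Epi/LRC than in CSCs, at -3.56 (adjusted p = 0.00154) for PLT1 and -2.32 (adjusted p = 0.0283) for PLT2. WOX5, the homeobox gene of the QC, was listed at 0 in every Epi/LRC replicate and was at 1.28 to 6.95 FPKM in NSCs (adjusted p = 0.0883). AGL42, whose reporter set the border of the NSC sort, was at 0, 0 and 0.0701 FPKM in Epi/LRC.

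Of the distal root cap genes 3 of 8 tested were higher. The receptor kinase ACR4 (AT3G59420), which restrains divisions of the columella stem cells, was at 7.61, 5.04 and 3.74 FPKM in Epi/LRC and 0.353 to 0.735 FPKM in NSCs (log2 fold change 2.08, SE 0.70, adjusted p = 0.0223). ACR4 was not called without Epi/LRC replicate 1. PGM (AT5G51820), needed for the starch that columella cells use to sense gravity, was at 12.6, 29.5 and 21.4 FPKM in Epi/LRC and 1.73 to 5.55 FPKM in NSCs (log2 fold change 2.12, SE 0.57, adjusted p = 0.00576). ARF10, an auxin response factor of the cap, was at 12.8, 16.9 and 38.6 FPKM in Epi/LRC and 5.66 to 7.68 FPKM in NSCs (log2 fold change 1.5, adjusted p = 0.0439), a call lost in 9 of 18 alternatives. WIP2 (AT3G57670) was at 0, 0.144 and 28.5 FPKM, and ARL2 at 2.25, 4.13 and 28.2 FPKM in Epi/LRC. Neither passed, at 0.47 (adjusted p = 0.696) for WIP2 and 1.81 (adjusted p = 0.0663) for ARL2. ARF16, ADG1 and CLE40 had log2 fold changes of -0.60, -0.90 and -0.01, and did not pass.

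The sorted pools could hold inner tissues, so markers of these were read in both groups. Of 16 ground tissue and Casparian strip genes 10 were lower in Epi/LRC and none higher, and 13 had all Epi/LRC values below all NSC values, compared to 25.4% of all genes. CASP1, a membrane protein that scaffolds the Casparian strip, was at 0, 5.63 and 0 FPKM in Epi/LRC and 444, 468, 586 and 788 FPKM in NSCs (log2 fold change -8.21, SE 1.78, adjusted p = 0.00121). The peroxidase PER64, which lignifies the strip, was at 0, 5.595 and 0 FPKM in Epi/LRC and 197 to 342 FPKM in NSCs (log2 fold change -7.02, SE 1.60, adjusted p = 0.00182). CASP4 and MYB36, the factor that turns on Casparian strip genes, were listed at 0 in every Epi/LRC replicate. In NSCs CASP4 was at 56.9 to 141 FPKM and MYB36 at 64.9 to 80.0 FPKM (adjusted p = 0.00265 and 3.90e-05). The list summed to 8.90, 45.7 and 13.3 FPKM in Epi/LRC and 1225 to 2194 FPKM in NSCs, with every Epi/LRC sum far below every NSC sum.

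Of 12 xylem and procambium genes tested 5 were lower and 1 higher, and of 6 phloem genes 3 were lower. XCP1, a protease of xylem vessels, was at 0, 0.251 and 6.96 FPKM in Epi/LRC and 85.8 to 343 FPKM in NSCs (log2 fold change -6.56, SE 1.03, adjusted p = 6.19e-05). T5L1, a bHLH partner of LHW in young vascular tissue, was at 0.318, 0 and 0.227 FPKM in Epi/LRC and 8.87 to 25.8 FPKM in NSCs (log2 fold change -3.86, adjusted p = 0.000659), and VND7, a switch of vessel differentiation, at 0, 0 and 0.554 FPKM in Epi/LRC and 2.43 to 8.17 FPKM in NSCs (log2 fold change -2.45, adjusted p = 0.000871). LHW itself was higher, at 16.1, 13.4 and 26.1 compared to 2.67 to 6.72 FPKM (log2 fold change 1.62, adjusted p = 0.0351), but was not called without Epi/LRC replicate 1, Epi/LRC replicate 3 or NSC replicate 4. The phloem sucrose transporter SUC2 was at 0.119, 0 and 0 FPKM compared to 9.32 to 65.6 FPKM (log2 fold change -4.97, adjusted p = 0.000231). The phloem regulator APL was listed at 0 in Epi/LRC and at 2.80 to 12.9 FPKM in NSCs, and SMXL4 was lower (log2 fold change -1.45, adjusted p = 0.00720). Replicate 3 alone held 59.3 FPKM of the procambial factor ATHB8, compared to 2.64 and 0.734 in replicates 1 and 2.

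Cell cycle genes were next examined, since initials are dividing cells. Of 27 DNA replication genes 20 were higher in Epi/LRC and none lower, with a median log2 fold change of 2.33. The E2F factors switch on many replication genes through short promoter sites. Windows of 250 bases before the annotated gene start were therefore searched for TTTCCCGC, TTTCGCGC, TTTGCCGC and TTTGGCGC on both strands. Of the replication genes 10 of 27 held such a site, compared to 1.41% of 27443 nuclear protein-coding genes. The site did not follow the call, since it was in 6 of the 20 genes called higher and in 4 of the 7 others. The windows of 3 genes called higher with a site are shown, to let the position of the site be compared, 5′ to 3′ on the strand of the gene with the site in capitals (RefSeq TAIR10.1). MCM5 and MCM6 encode subunits of the replicative helicase and ICU2 the catalytic subunit of DNA polymerase alpha. The windows lie at chr2:3527501-3527750, minus strand for MCM5, at chr5:18010668-18010917, minus strand for MCM6 and at chr5:26776703-26776952, plus strand for ICU2.
MCM5: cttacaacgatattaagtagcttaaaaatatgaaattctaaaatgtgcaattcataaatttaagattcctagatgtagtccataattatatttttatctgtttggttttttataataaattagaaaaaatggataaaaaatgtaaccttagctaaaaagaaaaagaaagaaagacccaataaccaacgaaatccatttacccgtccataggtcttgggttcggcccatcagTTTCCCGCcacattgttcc
MCM6: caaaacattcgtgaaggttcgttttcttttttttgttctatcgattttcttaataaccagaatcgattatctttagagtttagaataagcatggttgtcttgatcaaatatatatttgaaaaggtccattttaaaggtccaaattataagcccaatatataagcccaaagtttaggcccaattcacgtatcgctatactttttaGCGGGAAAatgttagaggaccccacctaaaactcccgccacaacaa
ICU2: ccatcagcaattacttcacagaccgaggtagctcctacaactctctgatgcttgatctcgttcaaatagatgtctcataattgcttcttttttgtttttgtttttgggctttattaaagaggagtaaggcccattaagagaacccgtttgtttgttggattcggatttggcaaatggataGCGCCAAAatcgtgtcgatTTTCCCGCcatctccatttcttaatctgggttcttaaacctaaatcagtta
The site of MCM5 starts 19 bases before the gene, that of MCM6 46 bases, and those of ICU2 70 and 51 bases. The match is a description of the letters only.

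MCM5 was at 15.7, 33.3 and 20.4 FPKM in Epi/LRC and 8.94, 6.58, 4.17 and 2.24 FPKM in NSCs (log2 fold change 1.95, SE 0.69, adjusted p = 0.0294). MCM6 was at 12.8, 30.0 and 12.05 FPKM in Epi/LRC and 0.949 to 4.40 FPKM in NSCs (log2 fold change 2.43, SE 0.59, adjusted p = 0.00288), and ICU2 at 6.91, 3.83 and 16.97 FPKM in Epi/LRC and 0.338 to 3.51 FPKM in NSCs (log2 fold change 1.69, adjusted p = 0.0400). The largest changes of the list were in genes without a site. RNR1, the large subunit of the enzyme that makes deoxynucleotides, was at 69.5, 69.0 and 53.9 FPKM in Epi/LRC and 7.06, 7.32, 3.64 and 1.81 FPKM in NSCs (log2 fold change 3.57, SE 0.57, adjusted p = 7.40e-05). PCNA1, the sliding clamp, was at 53.3, 118 and 44.8 FPKM in Epi/LRC and 1.13 to 12.9 FPKM in NSCs (log2 fold change 3.35, SE 0.97, adjusted p = 0.0100). ORC6, a subunit of the origin recognition complex, was at 37.0, 61.8 and 28.2 FPKM in Epi/LRC and 2.49 to 5.54 FPKM in NSCs (log2 fold change 3.19, SE 0.57, adjusted p = 0.000224). In each of the 3 genes all replicates lay far above the NSCs. The 7 genes not called were MCM4, ORC1A, ORC1B, ORC2, ORC3, CDT1A and RNR2A, with log2 fold changes from -0.15 for RNR2A to 1.46 for ORC2.

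Mitotic genes were higher less evenly. Of 28 genes 11 were higher and none lower, the median log2 fold change was 1.75, and 27 of 28 fold changes were positive. The summed FPKM was 335, 1001 and 197 in Epi/LRC replicates 1, 2 and 3 and 63.0 to 89.2 in NSCs. CDKB2;2, a kinase of the step into mitosis, was at 11.5, 32.7 and 14.2 FPKM in Epi/LRC and 0.230 to 2.12 FPKM in NSCs (log2 fold change 2.96, SE 0.75, adjusted p = 0.00400). MAP65-3, which bundles microtubules in the dividing cell, was at 14.2, 24.0 and 11.1 FPKM in Epi/LRC and 0.786 to 1.94 FPKM in NSCs (log2 fold change 2.86, SE 0.73, adjusted p = 0.00406), and the cyclin CYCA1;1 at 9.71, 23.7 and 11.6 FPKM in Epi/LRC and 0.907 to 1.57 FPKM in NSCs (log2 fold change 2.76, adjusted p = 0.00867). The B-type cyclins separated the replicates. CYCB1;2 was at 44.3, 183 and 0.161 FPKM in Epi/LRC and 6.12 to 9.06 FPKM in NSCs (log2 fold change 1.36, adjusted p = 0.456), and AUR1, a mitotic kinase, at 25.1, 128 and 8.596 FPKM in Epi/LRC and 4.42 to 10.4 FPKM in NSCs (log2 fold change 1.81, adjusted p = 0.147). Replicate 2 was highest and replicate 3 lowest in both. Without NSC replicate 4, 7 mitotic genes were called higher.

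Mitotic promoters hold sites with the core AACGG, which MYB3R factors bind. On both strands the core was in 17 of 28 windows of this list and in 20.6% of all 27443 windows. It was in 7 of the 11 genes called higher, or 63.6%, close to the 60.7% of the whole list, so the core did not follow the call. CYCB1;2, which was not called, held 4 cores. The window of CYCB1;1, a cyclin that marks the entry into mitosis, is shown because it holds 3 cores, in capitals, at 168, 61 and 13 bases before the gene (chr4:17624309-17624558, minus strand).
CYCB1;1: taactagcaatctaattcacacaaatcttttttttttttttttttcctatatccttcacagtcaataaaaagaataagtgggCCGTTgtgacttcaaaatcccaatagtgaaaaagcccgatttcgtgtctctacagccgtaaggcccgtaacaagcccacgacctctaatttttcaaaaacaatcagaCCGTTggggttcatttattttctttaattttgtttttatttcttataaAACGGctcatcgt
CYCB1;1 was at 23.4, 58.5 and 3.81 FPKM in Epi/LRC and 1.16 to 3.76 FPKM in NSCs (log2 fold change 2.61, SE 0.96, adjusted p = 0.0357), with replicate 3 close to the highest NSC sample.

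**Figure D3:**
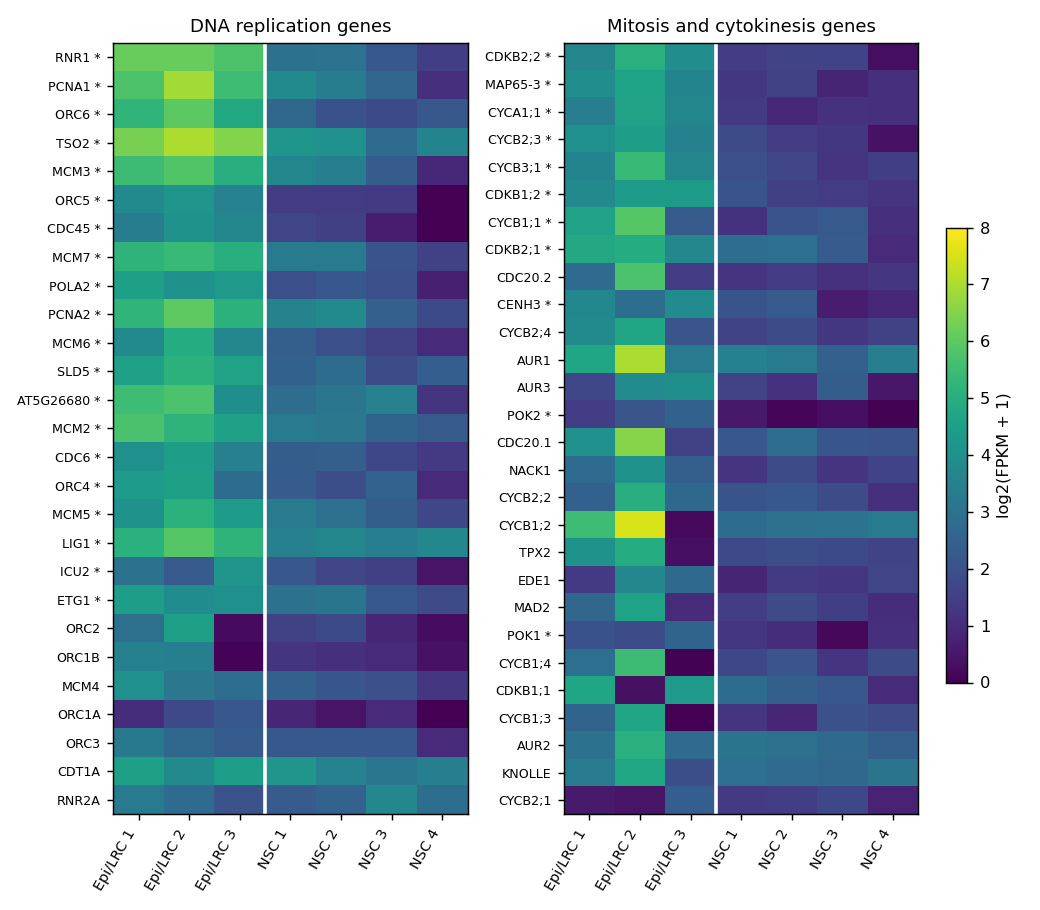
log2(FPKM + 1) of DNA replication genes (left) and of mitosis and cytokinesis genes (right) in the 3 Epi/LRC and 4 NSC samples, ordered by log2 fold change, with an asterisk for genes called higher. Replication genes such as RNR1 are bright in all 3 Epi/LRC replicates, while CYCB1;2, AUR1 and CDC20.1 are brightest in replicate 2.

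Of 14 cell cycle regulators 7 were higher and none lower. TCX2, a CPP protein with cysteine-rich repeats, was at 15.1, 22.6 and 25.4 FPKM in Epi/LRC and 1.43, 2.58, 2.60 and 1.75 FPKM in NSCs. Its relatives SOL1 (AT3G22760) and TSO1 were at 2.92, 7.12 and 8.93 and 27.8, 29.1 and 37.1 FPKM in Epi/LRC and at 0.0200 to 1.02 and 4.13 to 10.09 FPKM in NSCs (log2 fold change 2.14, adjusted p = 0.0239 and 1.91 (adjusted p = 0.00638) on the log2 scale). SOL1 was not called without Epi/LRC replicate 2, Epi/LRC replicate 3 or NSC replicate 4. DEL1, an atypical E2F that holds back endoreduplication, was at 16.7, 16.8 and 19.1 compared to 1.22 to 3.03 FPKM (log2 fold change 2.57, SE 0.54, adjusted p = 0.000965). E2FA, DPA and RBR1 had log2 fold changes of 1.85, 1.80 and 1.16 and were also called. E2FB, E2FC, DPB and the 4 MYB3R genes did not pass. Of the 7 genes called, TCX2 and RBR1 held an E2F site as spelled out above. None of the 27 replication, 28 mitotic and 14 regulator genes was higher in Epi/LRC than in CSCs by limma, also at an unadjusted p under 0.05, and 1, 1 and 0 were lower (background 4.27% higher and 6.66% lower). At an unadjusted p under 0.05, 3, 5 and 3 had negative fold changes. Of all 18501 genes, 1713 had positive and 2819 negative fold changes at that level.

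Most nuclear ribosomal protein genes were higher in Epi/LRC than in NSCs. The list held 323 nuclear genes whose annotated product contains the words ribosomal protein. Products that also name mitochondria, chloroplasts, plastids, kinases, methyltransferases or acetyltransferases were left out. The rule went by words only, and AT1G68660, called lower, is annotated as L12 or a Clp protease adaptor. Of the 323 genes 299 were tested. In Epi/LRC 231 were higher and 12 lower, with a median log2 fold change of 2.26. The list summed to 155776, 204042 and 73625 FPKM in Epi/LRC and 14229 to 32493 FPKM in NSCs. In Xyl it summed to 224241 to 279482 FPKM, above every Epi/LRC replicate, and in Protophlo to 10621 to 37254 FPKM. Compared with CSCs 2 genes were higher and 4 lower in Epi/LRC, and compared with the mean of the other 5 stem cell types 4 were higher and 5 lower. The increase was thus not particular to Epi/LRC. AT1G23410, annotated as ribosomal protein S27a with ubiquitin, was at 172, 296 and 55.6 FPKM in Epi/LRC and 2.58 to 10.4 FPKM in NSCs (log2 fold change 4.33, SE 0.88, adjusted p = 0.000739). NFD1, an L21 protein, was at 211, 254 and 106 FPKM in Epi/LRC and 7.05 to 12.03 FPKM in NSCs (log2 fold change 4.02, adjusted p = 0.000230), and AT3G57490 at 184, 383 and 102 FPKM in Epi/LRC and 4.40 to 16.7 FPKM in NSCs (log2 fold change 3.97, adjusted p = 6.31e-05). Of the 12 lower genes, AT1G58684 and AT1G58983 had the same values in each library and AT1G59359 nearly so, at 0.126 to 0.466 FPKM in Epi/LRC and 24.8 to 70.3 FPKM in NSCs. These copies share an annotated product with AT3G57490, and how reads were split between them is not given, so they remain uncertain. The number of higher ribosomal protein genes was 180 without Epi/LRC replicate 2.

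Among all nuclear genes, those with the largest increases and a mean of at least 10 FPKM in Epi/LRC had varied products. FIB2, the fibrillarin of the nucleolus, which methylates rRNA, was at 355, 1126 and 145 FPKM in Epi/LRC and 12.1, 15.6, 28.6 and 5.35 FPKM in NSCs (log2 fold change 4.77, SE 0.91, adjusted p = 0.000391). SKB1, an arginine methyltransferase also named PRMT5, was at 134, 230.4 and 75.7 FPKM in Epi/LRC and 0.510 to 7.34 FPKM in NSCs (log2 fold change 4.75, SE 0.72, adjusted p = 4.23e-05). The F-box gene AT5G10340 was at 171, 125 and 65.6 FPKM in Epi/LRC and 0.0684 to 2.17 FPKM in NSCs (log2 fold change 5.86, SE 0.79, adjusted p = 8.81e-06). RGF8, a secreted peptide of the family that maintains the meristem, was at 32.4, 52.6 and 85.1 FPKM in Epi/LRC and 0.163 to 1.46 FPKM in NSCs (log2 fold change 4.93, SE 0.58, adjusted p = 1.10e-06). AT5G26670, annotated as a pectin acetylesterase, was at 85.1, 143 and 159.9 FPKM in Epi/LRC and 3.20 to 4.03 FPKM in NSCs (log2 fold change 4.77, adjusted p = 2.59e-06). AT1G06990, a GDSL lipase, was at 15.9, 28.6 and 36.0 FPKM compared to at most 0.370 FPKM in NSCs, and AT3G15357 at 243, 480.4 and 25.5 FPKM in Epi/LRC and 0.692 to 10.5 FPKM in NSCs. AT2G01008 and AT3G41762 were at 796 FPKM or more in Epi/LRC and at 95.8 FPKM or less in NSCs. AT2G01008 lies just before the rRNA gene AT2G01010 on chromosome 2 (1025 to 3173 and 3706 to 5513, TAIR10.1), and how reads near it were assigned is not given in the sources used here.

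The largest decreases included lipid transfer protein and peroxidase genes. AT3G22600, a lipid transfer protein gene, was at 0.0887, 0 and 0.101 FPKM in Epi/LRC and 1249, 1163, 1161 and 1680.0 FPKM in NSCs (log2 fold change -10.26, SE 1.26, adjusted p = 2.16e-06). Its neighbour AT3G22620, of the same family, was at 0.626, 0.425 and 0.0894 FPKM in Epi/LRC and 826 to 1206 FPKM in NSCs (log2 fold change -9.42, SE 1.34, adjusted p = 1.76e-05). The peroxidase genes AT4G11290, AT5G66390 and RCI3 were at no more than 4.07 FPKM in any Epi/LRC replicate and at 261 FPKM or more in every NSC sample. Their log2 fold changes were -8.21, -7.98 and -7.49. XCP2, another xylem protease, was at 2.14, 0 and 0 FPKM in Epi/LRC and 107 to 386 FPKM in NSCs (log2 fold change -7.38, adjusted p = 1.38e-05), and AT3G45070, annotated as a nucleoside triphosphate hydrolase, at 1.20, 0 and 0 FPKM in Epi/LRC and 222 to 345 FPKM in NSCs. AT3G55230, annotated as dirigent-like, was listed at 0 in Epi/LRC and was at 224 to 459 FPKM in NSCs (adjusted p = 0.00251).

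Auxin genes changed in both directions. Of 31 tested, 5 were higher and 7 lower in Epi/LRC, close to the background. IAA33, an Aux/IAA protein that acts in the distal root, was at 146, 264 and 405 FPKM in Epi/LRC and 6.54, 4.81, 2.17 and 1.69 FPKM in NSCs (log2 fold change 5.84, SE 0.96, adjusted p = 9.68e-05). ARF8, an auxin response factor, was at 21.0, 31.7 and 17.7 FPKM in Epi/LRC and 2.09 to 2.63 FPKM in NSCs (log2 fold change 2.83, SE 0.54, adjusted p = 0.000412). PIN2, the efflux carrier of the epidermis and lateral root cap, was at 227, 259 and 289 FPKM in Epi/LRC and 69.7 to 121 FPKM in NSCs (log2 fold change 1.57, SE 0.54, adjusted p = 0.0262). The call was lost without Epi/LRC replicate 2, Epi/LRC replicate 3 or NSC replicate 4. PIN2 was also higher than in CSCs (log2 fold change 1.89, adjusted p = 0.0379) and than the mean of the other 5 types (log2 fold change 2.67, adjusted p = 0.000733). The receptor genes AFB1 and AFB3 were called higher as well (log2 fold change 1.38, adjusted p = 0.0110 and 1.11 (adjusted p = 0.0220)). The number of higher genes was 3 without Epi/LRC replicate 2 and 3 without replicate 3.

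Of the lower auxin genes, the influx carrier LAX3 was at 2.73, 0 and 0 FPKM in Epi/LRC and 179.7, 134, 26.3 and 38.2 FPKM in NSCs (log2 fold change -5.53, SE 1.23, adjusted p = 0.00147). YUC5 and YUC8, which complete auxin synthesis, were at 3.98, 0.0878 and 0.0554 and 23.9, 0.512 and 0.202 FPKM in Epi/LRC and at 47.1 to 87.1 and 91.3 to 129 FPKM in NSCs. Their log2 fold changes were -5.01 (adjusted p = 0.000144) and -4.87 (adjusted p = 0.000267). TAA1, TAR2, IAA17 and IAA30 were also lower, from -2.49 for TAA1 to -2.04 for TAR2. Without replicate 2, 4 auxin genes were lower. The columella carriers PIN3, PIN4 and PIN7 were at 104, 176 and 36.2 FPKM in replicate 3 and at no more than 8.05 FPKM in replicates 1 and 2. They did not pass the test.

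Stress genes that respond to handling were then read, since sorting needs protoplasts. Of 23 wounding, heat and touch genes 15 were lower in Epi/LRC and none higher, with a median log2 fold change of -2.17. JAZ1, a jasmonate repressor induced by wounding, was at 175, 103 and 257 FPKM in Epi/LRC and 993 to 1151 FPKM in NSCs (log2 fold change -2.69, SE 0.51, adjusted p = 0.000350). HSP17.4, a small heat shock protein, was at 2.80, 0.723 and 0.457 FPKM in Epi/LRC and 34.9 to 101.02 FPKM in NSCs (log2 fold change -4.77, SE 0.98, adjusted p = 0.000784), LOX4, a lipoxygenase of jasmonate synthesis, at 0.348, 14.4 and 2.57 FPKM in Epi/LRC and 36.6 to 72.2 FPKM in NSCs (log2 fold change -3.64, adjusted p = 0.00560), and the touch-induced TCH3 at 4.22, 41.6 and 13.5 FPKM in Epi/LRC and 134 to 279 FPKM in NSCs (log2 fold change -3.62, adjusted p = 0.00775). TCH2, also touch-induced, was at 158, 398 and 518 FPKM in Epi/LRC and 121 to 233 FPKM in NSCs and missed the threshold (log2 fold change 0.90, adjusted p = 0.0756). The list summed to 1299, 2068 and 3096 FPKM in Epi/LRC and 4707 to 7046 FPKM in NSCs. In the fit without Epi/LRC replicate 1, 8 genes were lower and 1 higher. The part of sample handling in these differences was not tested.

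The 3 Epi/LRC replicates differed in which lists they held most of. Replicate 1 had the most FPKM of cap maturation genes, replicate 2 of mitotic, ribosomal protein and plastid genes, and replicate 3 of root hair and distal root cap genes. The plastid genome summed to 2219, 19583 and 9603 FPKM in replicates 1, 2 and 3 and 1176 to 2114 FPKM in NSCs. The mitochondrial genome summed to 7251, 14849 and 17463 FPKM and 3464 to 4955 FPKM. Distal root cap genes summed to 69.0, 117 and 238 FPKM in Epi/LRC and 92.9 to 127 FPKM in NSCs. Whether the replicates held different mixtures of cells was not tested.

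**Figure D4:**
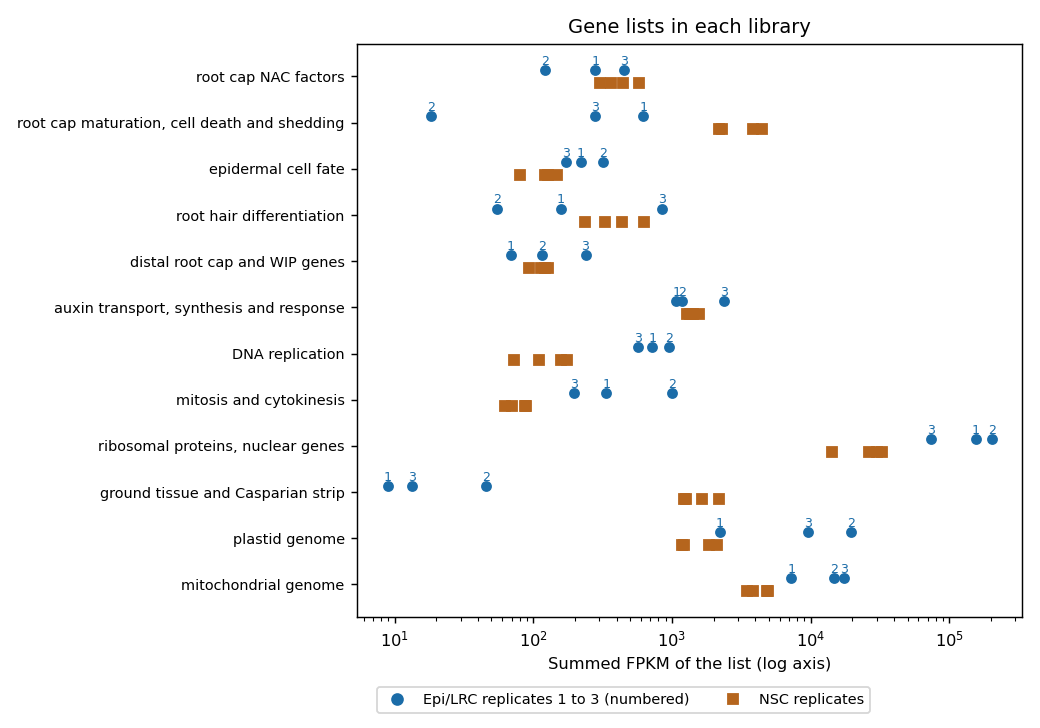
Summed FPKM of 12 gene lists in each library on a log axis, with Epi/LRC replicates as numbered circles and the 4 NSC replicates as squares. Replicate 2 is lowest for root cap maturation and root hair genes and highest for mitosis, ribosomal protein and plastid genes, while Casparian strip genes are below all NSC samples in all 3 replicates.

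To ask what sets Epi/LRC apart from the other stem cells, the same fit was read against the mean of the CEI, Protophlo, CSCs, Xyl and QC. In Epi/LRC 451 genes (2.44%) were higher and 497 (2.69%) lower. These numbers were 197 and 149 without Epi/LRC replicate 2, and without replicate 1, 299 genes were higher. Epi/LRC shares its samples with the comparison to NSCs, and the filter on low values used Epi/LRC and NSC samples only. A gene that failed it was not tested, however high in the other types. The lower genes therefore leave out genes absent from both Epi/LRC and NSCs. Of the higher genes 118 had all 3 replicates above all 17 samples of the other types, compared to 0.676% of all genes, and 98 of them were also above all NSC samples. Of the lower genes 23 were below all 17 samples, compared to 0.141% of all genes.

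By fold change, a snoRNA gene, AT2G35382, led these 118, and its values were 0 in many other samples. Next were protein kinase genes. AT4G35030 (chromosome 4, 16675377 to 16678206, TAIR10.1) was at 172, 216 and 316 FPKM in Epi/LRC, and the highest of the 17 other samples was at 70.4 FPKM (log2 fold change 4.91, SE 0.51, adjusted p = 1.78e-06). In NSCs it was at 5.43 to 9.61 FPKM (log2 fold change 4.69, SE 0.62, adjusted p = 7.10e-06). CPK15, a calcium-dependent kinase, was at 26.0, 53.0 and 26.6 FPKM, with at most 2.57 FPKM in another type and 0.666 to 2.06 FPKM in NSCs (log2 fold change 4.75, SE 0.31, adjusted p = 5.73e-10). The peroxidase AT2G43480 was at 339, 407 and 777 FPKM (log2 fold change 4.61, adjusted p = 0.00146), the beta glucosidase BGLU27 at 17.9, 28.8 and 27.7 FPKM (log2 fold change 4.29, adjusted p = 1.08e-07), and AT3G14540, annotated as a terpenoid cyclase, at 83.2, 129 and 106 FPKM (log2 fold change 3.76, adjusted p = 2.61e-06). In the other 17 samples they reached 156, 4.31 and 59.8 FPKM at most.

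Of the 23 lower genes, SETH6, annotated as an NPH3 family protein, was at 0.266, 0 and 0.0304 FPKM in Epi/LRC, compared to 0.768 to 71.3 FPKM in the 17 other samples (log2 fold change -3.83, adjusted p = 6.15e-06). PBP1 (AT5G54490), a calcium-binding protein that binds the PINOID kinase, was at 5.46, 4.64 and 8.06 FPKM compared to 27.3 to 417 FPKM (log2 fold change -3.45, adjusted p = 0.000559). These higher and lower genes were named after their values were seen.

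**Figure D5:**
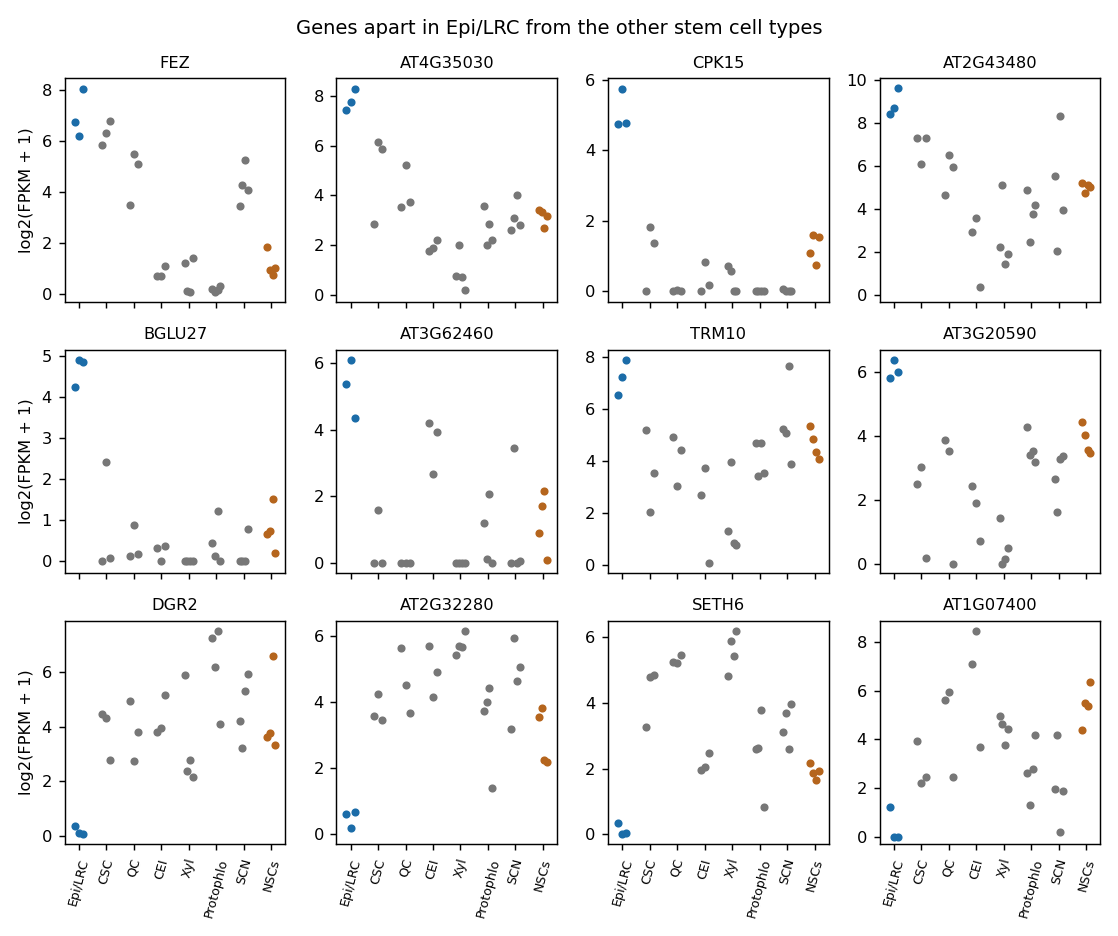
log2(FPKM + 1) of FEZ, 7 genes higher and 4 genes lower in Epi/LRC than in the other types, chosen among those with the largest changes, with a point for each sample of the 8 populations (Epi/LRC blue, NSCs brown) and the snoRNA gene left out. CPK15 and BGLU27 are near 0 in most other samples, TRM10 overlaps with a sample of the SCN, AT2G43480 does not, and SETH6 is lowest in Epi/LRC.

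The CSCs were the type closest to Epi/LRC in FEZ, and 790 genes (4.27%) were higher and 1233 (6.66%) lower in Epi/LRC than in CSCs. Here too genes high in CSCs that failed the filter on Epi/LRC and NSC samples were not tested. With size factors, which moved the median by 0.20, 988 genes were higher and 669 lower, so that the share of higher calls went from 39.1% to 59.6%. For 113 of the higher and 278 of the lower genes the CSC samples lay outside all 25 other samples. An example is FLC, a repressor of flowering, at 190.2 to 308 FPKM in CSCs and 6.36 FPKM at most elsewhere. AT2G14878 was at 0.0847 to 0.355 FPKM in CSCs and 15.8 FPKM or more elsewhere. The labels give Col-0 for the CSC line too. Each population came from 1 line. A difference of the line and a difference of the cell type cannot be told apart in comparisons with CSCs, NSCs or the other types. Of 31 auxin genes 11 were lower and 3 higher than in CSCs. IAA20 was at 0.115, 0.208 and 41.6 FPKM compared to 251 to 284 FPKM (log2 fold change -6.12, adjusted p = 0.00263), and IAA14 was higher in Epi/LRC (log2 fold change 3.41, adjusted p = 0.000447). AT3G01190, a peroxidase, was at 385, 16.2 and 969 FPKM compared to 1.03 to 2.95 FPKM in CSCs (log2 fold change 6.15, adjusted p = 0.000968), and CYP705A5, a cytochrome P450, at 177, 29.1 and 252 FPKM compared to 0.113 to 1.77 FPKM (log2 fold change 6.05, adjusted p = 0.000533). None of the 10 maturation, 10 root hair and 4 NAC genes was called between Epi/LRC and CSCs by limma. At an unadjusted p under 0.05, 5 root hair genes had positive fold changes, compared to 1713 of all 18501 genes. No maturation or NAC gene passed at that level.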

How the data were processed

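FPKM values per gene came from the table the authors deposited. Per the methods of the study, cut root tips of seedlings were protoplasted, GFP-positive or GFP-negative cells were sorted, cDNA was made with an ultra low input kit, and reads were single-end. The submitters' processing notes name TopHat2 2.0.13, Cufflinks 2.1.1 and the build TAIR10. How reads with several matches were counted is not given in the sources used here. FPKM keeps no read depth, so no counting interval is given. Per the methods, the replicates of each line were biological, each grown from its own seed.

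All 28 samples were fitted together as log2(FPKM + 1) with limma 3.58.1 (empirical Bayes with a trend, R 4.3.3, 20 residual degrees of freedom), with a mean per population. Tests were two-sided, and p-values were adjusted by Benjamini-Hochberg over the 18501 genes that reached 1 FPKM in 3 or more of the 7 Epi/LRC and NSC samples. Genes were called at an adjusted p under 0.06 and a fold above 2, the thresholds of the study, whose own test needs counts. Fold changes are on the log2(FPKM + 1) scale and understate low genes. The fitting steps were tested on simulated data. Each gene there had the same spread in every group, unlike these data, so this checks the steps and not the error rate here. The 22 gene lists and their members were chosen with earlier results of these data known. Named genes are FEZ, SMB, TCX2, all root cap and epidermal list members, up to 3 higher and 3 lower genes per list, and the 12 nuclear genes in each direction with the largest change, a mean of at least 10 FPKM in the higher group and no overlap. List members outside this rule, the genes that set Epi/LRC apart from other stem cells and those compared with CSCs were named after their values were seen. Symbols and coordinates are from RefSeq TAIR10.1. Promoters were searched with Python 3.11.15. Alternatives were a pseudocount of 0.1, no filter, TPM, size factors, organelle genes left out, a fit of the 2 groups alone, a replicate block, no trend, array weights, an adjusted p under 0.05, the fold as a ratio of means and each replicate left out. Some genes are not reported here.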

Additional observations from a re-analysis of the deposited data

Results flagged for a closer look

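Of 128 groups of 4 NSC values, 10 held a sample far from the other 3, where chance gives about 1 in 20 groups. Groups of 3, and so Epi/LRC, were not examined. NSC replicate 4 was high for AT3G22600 at 1680.0 FPKM, for AT3G22620 at 1206 FPKM and for PSAD1 at 7.49 FPKM. It was low for the near-identical ribosomal protein genes AT1G59359 at 24.8 FPKM, AT1G58684 at 24.3 FPKM and AT1G58983 at 24.3 FPKM. NSC replicate 1 was high for YUC5 at 87.1 FPKM and AT1G06990 at 0.370 FPKM, NSC replicate 2 for HDG2 at 3.55 FPKM, and NSC replicate 3 for SUB at 0.845 FPKM.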

How the results depend on the processing

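The number of genes higher in Epi/LRC than in NSCs ranged from 1904 to 2897 and of lower genes from 2738 to 4166 when a replicate was left out. Compared with CSCs, array weights gave 1211 higher and 1867 lower genes and size factors 669 lower genes. Leaving out a replicate gave 527 to 944 higher and 822 to 1273 lower genes. Compared with the mean of the other 5 types, leaving out an Epi/LRC or CSC replicate, the only ones left out there, gave 197 to 447 higher and 149 to 709 lower genes, and array weights 835 lower genes. The alternatives for this mean, and for CSCs TPM, no organelle genes, no trend, array weights and an adjusted p under 0.05, were added after seeing the data. The cause of these shifts was not tested. No named gene called in a direction was called in the opposite direction by an alternative. Fold changes of genes not called could change sign. Lower genes outnumbered higher genes against NSCs in each alternative, but not against CSCs with size factors (988 and 669) or without Epi/LRC replicate 2 (944 and 822), nor against the other types without Epi/LRC replicate 2 (197 and 149) or organelle genes (457 and 432). Of the 128 named genes 102 were called, and 76 of these in all 7 fits without a replicate. Samples with the same replicate number had deviations correlated at r of -0.02, 0.15 and -0.02, within the range of -0.20 to 0.22 for unlike numbers. So few samples cannot show whether they shared a batch. With the replicate block limma called 2540 higher and 3757 lower genes against NSCs, 725 and 1105 compared with CSCs, and 368 and 421 compared with the other types.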

Other observations

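Nutrient uptake genes were lower in Epi/LRC than in NSCs in 5 of 9 tested and higher in none. NRT1.1, a nitrate transporter, was at 5.89, 0.146 and 3.20 FPKM in Epi/LRC and 51.2 to 112 FPKM in NSCs (log2 fold change -4.53, SE 0.66, adjusted p = 2.51e-05), and PHO1, which exports phosphate to the xylem, at 0, 0.0375 and 0.0947 FPKM in Epi/LRC and 3.70 to 7.88 FPKM in NSCs (log2 fold change -2.53, adjusted p = 0.00341). The phosphate transporter PHT1;1 was at 17.1, 0.119 and 91.8 FPKM in Epi/LRC and 71.6 to 128 FPKM in NSCs, and its call (adjusted p = 0.0534) was lost in 12 of 18 alternatives. Only 2 genes of the list were lower without Epi/LRC replicate 2. Compared with CSCs 2 were higher in Epi/LRC and 1 lower.

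Of 9 cytokinin genes 2 were lower, near the background of 21.0%, and both encode receptors. AHK3 was at 0.944, 4.70 and 8.01 FPKM in Epi/LRC and 23.0 to 40.8 FPKM in NSCs (log2 fold change -2.77, SE 0.56, adjusted p = 0.000669), and AHK2 at 1.46, 0.0254 and 0.0963 FPKM in Epi/LRC and 3.14 to 4.77 FPKM in NSCs (log2 fold change -1.72, adjusted p = 0.00922). Of 10 nuclear photosynthesis genes 4 were lower and none higher. PSBO1 and PSAD1, subunits of the photosystems, were listed at 0 in all Epi/LRC replicates, with 3.21 to 9.66 and 2.36 to 7.49 FPKM in NSCs, and LHCB5 was at 0, 0.0936 and 3.31 FPKM in Epi/LRC and 4.41 to 5.21 FPKM in NSCs, a call lost in 10 of 18 alternatives. Only 2 of these were lower without Epi/LRC replicate 2. The plastid genome went the other way in its sum, and of 91 plastid genes tested 30 were higher and 20 lower. ATCG01180, ATCG00950 and ATCG00905 were at 0.0916 FPKM or less in Epi/LRC and at 18.6 FPKM or more in NSCs. The first and second of these had nearly the same values, and how reads were split between them is not given, so they remain uncertain. Without Epi/LRC replicate 2, 13 plastid genes were higher. Of 66 mitochondrial genes 6 were higher and 28 lower, although their sum was larger in Epi/LRC. The only gene called of 7 for plastid transcription, AT5G15700, annotated as a polymerase, was at 10.9, 14.04 and 8.9999 FPKM in Epi/LRC and 1.97 to 3.39 FPKM in NSCs (log2 fold change 1.73, adjusted p = 0.0401), and its call was lost in 7 of 18 alternatives.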
